A study of Mus musculus with 12 samples.

Results

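The enzymes described here convert steroid hormones into more or less active forms, and their transcripts were measured in mammary glands of mice with and without cyclin D1. The set holds 10 genes taken by symbol: the aldo-keto reductases Akr1cl, Akr1c14 and Akr1c18, the hydroxysteroid dehydrogenases Hsd17b1, Hsd17b2, Hsd17b4, Hsd17b11 and Hsd11b1, the steroid 5-alpha-reductase Srd5a1 and the aromatase Cyp19a1. The platform annotation linked 12 of the 45101 probe sets on the array to 8 of these genes. Srd5a1 and Cyp19a1 were linked to none and are not analysed here. Akr1cl was included because it was higher under estradiol in these same arrays, so the estradiol differences of the set below are a description and support nothing. How many of them fell under the threshold of the main fit is given beside the share of all genes, and again for the alternative analyses. Nothing is read from these counts, whereas comparisons of the genotypes were tested.

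The glands came from 12 ovariectomized virgin C57BL/6 mice, 6 carrying both copies of Ccnd1 (Ccnd1+/+, called wildtype) and 6 lacking it (Ccnd1-/-, called knockout). The gene codes for cyclin D1, which activates kinases at the start of the cell division cycle. Removal of the ovaries takes away the main source of estrogen in all 4 groups, and each genotype then received placebo or pellets of 0.72 mg estradiol with a 60-day release, for 7 days, with 3 mice per group. No cell type is named to which the Ccnd1 deletion is limited, and the labels do not state which gland was taken or how its lymph node was handled.

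Values are log2 intensities, on which a difference of 1 is a factor of 2, and the number of arrays limits their precision. Array medians lay between 5.73 and 5.80 and correlations between arrays across genes between 0.937 and 0.993. Ccnd1 lay at 7.24 to 7.68 in the 6 knockout arrays and at 8.50 to 10.8 in the 6 wildtype arrays; the position of its probes relative to the deletion is not known here. The fat cell genes Adipoq and Fabp4 stood at 12.9 to 13.8 in every array. The luminal keratin genes Krt8 and Krt18 spanned 5.32 to 13.0 and 4.50 to 11.2, whereas the luminal marker Epcam stayed at 7.31 to 7.83. A lymphocyte score, the mean centred log2 level of 12 T cell and 9 B cell markers, was low in 1 placebo array of each genotype (wildtype array 3, -2.10; knockout array 2, -2.01) and between 1.82 and 2.41 in the other 4 placebo arrays. Under estradiol the score was -2.17, 0.71 and -2.26 in wildtype arrays 1 to 3 and -2.24, 1.57 and 0.35 in knockout arrays 1 to 3.

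Steroid hormones act through nuclear receptors, and the enzymes of a target tissue set how much active hormone reaches them. Aldo-keto reductases of the Akr1c family reduce ketone groups of progesterone, androgens and related steroids. The 17-beta-hydroxysteroid dehydrogenases interconvert estradiol and the weaker estrone, and the 11-beta-hydroxysteroid dehydrogenases interconvert active and inactive glucocorticoids. In the mammary gland estradiol and progesterone drive growth of the ducts and their side branches.

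The promoters of the 3 aldo-keto reductase genes are shown because these genes had the largest estradiol differences of the set in wildtype. Each sequence is the 250 bases before the RefSeq gene start in assembly GRCm38.p6, read 5′ to 3′ on the gene's strand. Akr1cl lies at chr1:65032760-65033009 on the minus strand, Akr1c14 at chr13:4059341-4059590 on the plus strand and Akr1c18 at chr13:4150647-4150896 on the minus strand. Capitals mark matches on either strand to the estrogen response half-site GGTCA or the CCAAT box.
Akr1cl: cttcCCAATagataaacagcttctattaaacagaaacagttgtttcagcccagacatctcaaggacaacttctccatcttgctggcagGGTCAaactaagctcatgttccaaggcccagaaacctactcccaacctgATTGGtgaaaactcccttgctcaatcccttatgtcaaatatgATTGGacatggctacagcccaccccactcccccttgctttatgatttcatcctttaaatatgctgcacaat
Akr1c14: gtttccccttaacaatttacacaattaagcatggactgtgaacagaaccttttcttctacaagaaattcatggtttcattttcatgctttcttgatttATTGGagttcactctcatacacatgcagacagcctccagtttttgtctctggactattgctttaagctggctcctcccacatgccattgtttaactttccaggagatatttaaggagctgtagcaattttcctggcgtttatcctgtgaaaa
Akr1c18: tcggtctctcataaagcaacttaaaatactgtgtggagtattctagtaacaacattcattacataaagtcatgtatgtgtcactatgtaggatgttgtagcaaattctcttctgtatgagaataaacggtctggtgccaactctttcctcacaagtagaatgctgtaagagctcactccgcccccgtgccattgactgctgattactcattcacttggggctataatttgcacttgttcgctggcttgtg

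The full estrogen response element, which is the half-site GGTCA, 3 bases of any kind and then TGACC, matched none of these 3 windows and 0.0639% of the 32851 promoter windows of the same length. Akr1cl held 1 half-site, 162 to 158 bases before the start, and 35.2% of all windows held at least 1. CCAAT occurred 3 times before Akr1cl, once before Akr1c14 and not before Akr1c18, against 33.8% of all windows with a match. Neither the AP-1 motif TGANTCA (6.75% of windows) nor TATAAA (12.4%) matched any of the 3. RefSeq promoters were matched for 7 of the 10 genes, 5 of them with a probe set. A match is letters in a window and does not show binding, and the lack of a match says nothing of more distant sites.

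Akr1cl, an aldo-keto reductase named for its likeness to the Akr1c family, showed the largest estradiol difference of the set in both genotypes. Its main probe set read 7.01, 6.69 and 5.08 in wildtype placebo arrays 1 to 3 and 9.18, 10.24 and 11.12 in wildtype estradiol arrays 1 to 3. In knockout it read 6.68, 5.35 and 7.16 on placebo and 8.01, 10.13 and 8.10 under estradiol. Every estradiol array lay above every placebo array of either genotype, and the group SDs were 0.94 to 1.20. The estradiol difference was 3.92 ± 0.76 (SE, n = 3 per group; 95% interval 2.23 to 5.60) in wildtype and 2.35 ± 0.76 (0.66 to 4.03) in knockout. The order of the group means was wildtype estradiol (10.18), knockout estradiol (8.74), knockout placebo (6.40) and wildtype placebo (6.26). Wildtype and knockout overlapped under each treatment.

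The second Akr1cl probe set was dim, with 10 of 12 arrays under the lower quartile of their array. Its 3 highest values were 5.66 in wildtype estradiol array 3, 4.28 in knockout estradiol array 2 and 3.76 in wildtype estradiol array 2, which were also the 3 highest arrays of the main probe set. Its estradiol difference was 1.05 in wildtype and 0.37 in knockout, much smaller than on the main probe set.

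Akr1c14, a 3-alpha-hydroxysteroid dehydrogenase that reduces dihydro forms of androgens and progesterone, was also higher under estradiol in both genotypes. It read 6.97, 7.27 and 8.60 in wildtype placebo arrays and 10.94, 9.55 and 9.94 in wildtype estradiol arrays 1 to 3. In knockout arrays it read 7.92, 8.85 and 7.47 on placebo and 9.47, 10.10 and 9.89 under estradiol. As for Akr1cl, the 6 estradiol arrays all lay above the 6 placebo arrays. The difference was 2.53 ± 0.50 (SE; 95% interval 1.42 to 3.64) in wildtype and 1.74 ± 0.50 (0.63 to 2.85) in knockout.

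Akr1c18, which inactivates progesterone by reducing it at carbon 20, had an estradiol difference in wildtype and almost none in knockout. Its values were 5.71, 6.25 and 7.85 in wildtype placebo arrays and 9.02, 7.87 and 8.85 in wildtype estradiol arrays. In knockout they were 6.75, 7.90 and 6.31 on placebo and 8.03, 6.39 and 6.50 under estradiol. The wildtype groups were separated only by the step from 7.85 to 7.87, and the knockout groups overlapped. The difference was 1.98 ± 0.65 (SE; 95% interval 0.54 to 3.42) in wildtype and -0.01 ± 0.65 in knockout, and the sign in knockout turned in 5 of 23 alternative analyses.

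**Figure D1:**
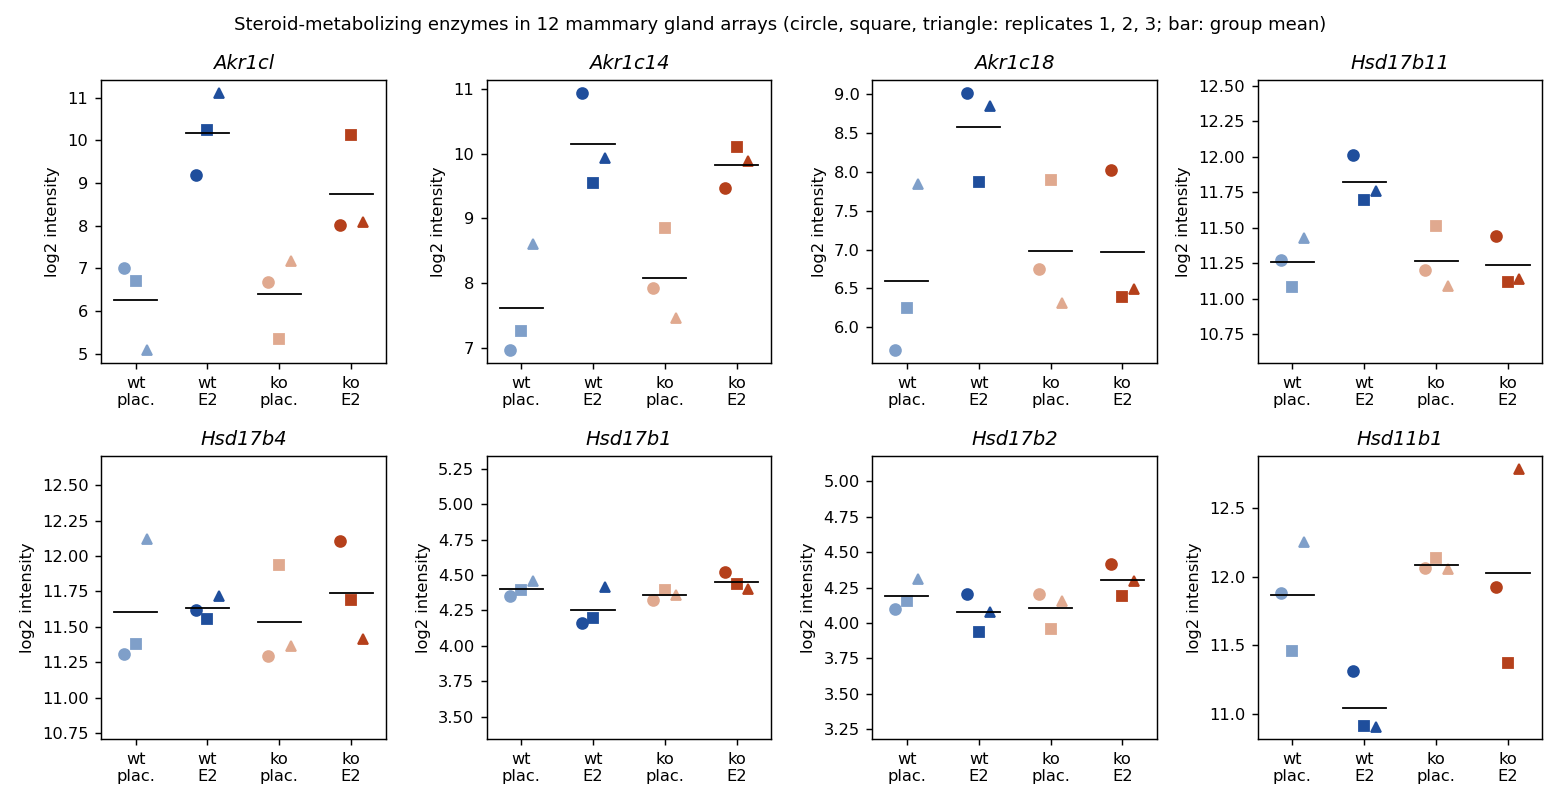
Log2 intensity (vertical axes) of the 8 measured enzyme genes in the 4 groups of 3 arrays, with marker shapes for array numbers 1 to 3 and a bar at each group mean. In the panels of Akr1cl and Akr1c14 the 6 estradiol arrays lie above the 6 placebo arrays, and in that of Akr1c18 only the wildtype groups are apart.

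The levels of these 3 genes differed with the lymphocyte score among the placebo arrays, and less evenly among the estradiol arrays. The placebo array of each genotype with the low score had the lowest Akr1cl of its group (5.08 in wildtype, 5.35 in knockout) and the highest Akr1c14 (8.60 and 8.85) and Akr1c18 (7.85 and 7.90). In knockout estradiol, array 1, with a score of -2.24, had the highest Akr1c18 (8.03), whereas array 2, with 1.57, had the highest Akr1cl (10.13) and the lowest Akr1c18 (6.39). Akr1c14 ran the other way there, with 9.47 in array 1 and 10.10 in array 2, and in wildtype estradiol the array with the lowest score, array 3 (-2.26), had the highest Akr1cl (11.12). All 21 lymphocyte markers measured were above the lower quartile in at least 1 array. Summed log2 levels of the 12 T cell markers ranged from 62.8 to 114.9 in wildtype placebo, 61.1 to 93.0 in wildtype estradiol, 64.7 to 109.2 in knockout placebo and 61.3 to 107.2 in knockout estradiol. Those of the 9 B cell markers ranged from 47.0 to 89.1, 45.3 to 74.9, 47.1 to 86.2 and 45.7 to 79.8 in the same order. A fit with this score as an added term, chosen after seeing the data, gave a wildtype estradiol difference of 4.62 for Akr1cl, 2.11 for Akr1c14 and 1.19 for Akr1c18.

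The luminal score, the mean centred level of 20 luminal epithelial markers, also differed between groups. It was 1.19, 2.93 and 1.85 in wildtype estradiol arrays, between -0.22 and 0.42 in wildtype placebo, between -1.59 and 0.14 in knockout placebo and between -1.63 and -0.78 in knockout estradiol. The summed level of the 20 markers ranged from 163.8 to 198.5 in wildtype estradiol and from 107.4 to 124.4 in knockout estradiol, against 135.5 to 148.4 and 108.1 to 142.7 on placebo. Knockout estradiol array 2 combined the lowest luminal score (-1.63) with an Akr1cl level of 10.13. With this score as a covariate, also added afterwards, the wildtype estradiol difference was 3.73 for Akr1cl and 3.44 for Akr1c14. Other marker lists also stood higher in wildtype estradiol than in wildtype placebo, without overlap. Summed levels were 133.1 to 152.8 against 115.4 to 123.0 for 14 macrophage markers, 171.9 to 176.5 against 150.3 to 166.0 for 15 fibroblast and matrix markers and 121.7 to 128.2 against 101.1 to 111.9 for 15 basal epithelial markers. In knockout the same lists ranged from 125.4 to 131.9 under estradiol and 119.4 to 126.0 on placebo for macrophage, 154.1 to 167.6 and 156.0 to 167.9 for fibroblast and matrix and 108.8 to 111.0 and 103.8 to 109.4 for basal markers, and overlapped. The part of these cell populations in the enzyme levels was not tested, and in whole gland RNA fewer cells of a type and less RNA per cell cannot be told apart.

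**Figure D2:**
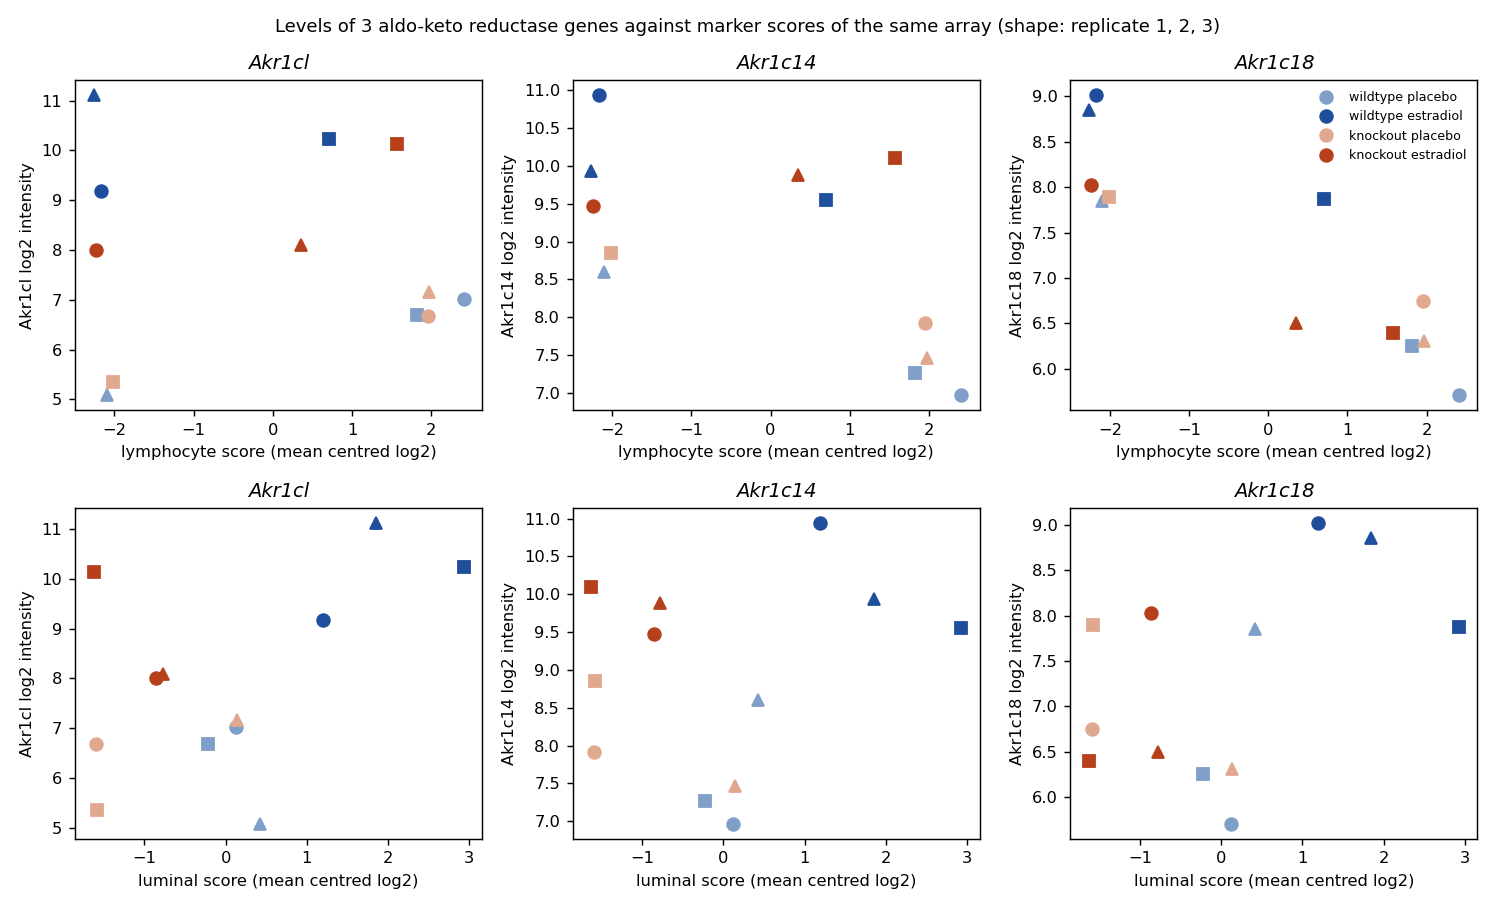
Log2 intensity of Akr1cl, Akr1c14 and Akr1c18 (vertical axes) against the lymphocyte score and the luminal score of the same array (horizontal axes, mean centred log2), with 1 point per array, colours for the 4 groups and shapes for array numbers. The placebo arrays at lymphocyte scores of -2.10 and -2.01 have the lowest Akr1cl and the highest Akr1c18 of their groups.

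Akr1c14 and Akr1c18 are neighbours in the Akr1c cluster on chromosome 13, which in RefSeq GRCm38.p6 runs on through Akr1c13, Akr1c19, Akr1c12, Akr1c6, Akr1c20 and Akr1c21. The other 6 genes of the cluster had wildtype estradiol differences from -0.01 (Akr1c12) to 0.31 (Akr1c13), and none passed the test. Akr1cl lies on chromosome 1, away from the cluster. Genes of this family are alike in sequence, and probes shared between them could not be checked here.

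Hsd17b11, a short-chain dehydrogenase of lipid droplets that also oxidizes androgen metabolites, was higher under estradiol in wildtype and not in knockout. On its main probe set it read 11.27, 11.08 and 11.43 in wildtype placebo and 12.01, 11.69 and 11.76 in wildtype estradiol arrays. Knockout arrays read 11.20, 11.51 and 11.09 on placebo and 11.44, 11.12 and 11.14 under estradiol. The 3 wildtype estradiol arrays stood above the other 9 arrays. The estradiol difference was 0.56 ± 0.15 (SE; 95% interval 0.22 to 0.90) in wildtype and -0.03 in knockout, where the sign turned in 7 of 25 alternatives. A second probe set gave 0.50 and 0.12, and the last of its 3 lay under the lower quartile in every array.

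Hsd17b4, a peroxisomal enzyme best known for fatty acid oxidation, was bright in all arrays and varied little with treatment. It ranged from 11.31 to 12.12 in wildtype placebo, 11.56 to 11.72 in wildtype estradiol, 11.29 to 11.94 in knockout placebo and 11.42 to 12.10 in knockout estradiol. The estradiol difference was 0.03 in wildtype and 0.20 in knockout, and a second probe set gave -0.15 in wildtype. The 4 groups overlapped.

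Hsd17b1, which makes estradiol from estrone, and Hsd17b2, which runs the reverse step, were both near the dim end of the arrays. Hsd17b1 ranged from 4.16 to 4.52 over the 12 arrays, 1 of them under the lower quartile, and its estradiol difference was -0.14 in wildtype and 0.09 in knockout. Hsd17b2 ranged from 3.94 to 4.42, with 8 arrays under the lower quartile, and differed by -0.11 and 0.19. At such intensities a change in transcript may not show.

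Hsd11b1, which regenerates active corticosterone, was lower under estradiol in wildtype. It read 11.88, 11.46 and 12.25 in wildtype placebo and 11.31, 10.91 and 10.91 in wildtype estradiol arrays. In knockout it read 12.06, 12.14 and 12.06 on placebo and 11.93, 11.37 and 12.79 under estradiol. The wildtype groups did not overlap, and the knockout estradiol arrays lay on both sides of the placebo arrays. The difference was -0.82 ± 0.32 (SE; 95% interval -1.52 to -0.11) in wildtype and -0.06 in knockout. The summed level of 13 white adipocyte markers was 154.7 to 166.1 in wildtype placebo and 159.6 to 162.9 in wildtype estradiol; its part in the Hsd11b1 difference was not tested.

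Of the 8 measured enzymes, 2 (Akr1cl and Akr1c14) had an adjusted p under 0.05 in limma in wildtype, where 1.88% of 18193 genes did (1.83% higher), and none did in knockout, where 0.0989% did. In wildtype the groups did not overlap for 5 enzymes, against 17% of all genes, and in knockout for 3 (Akr1cl, Akr1c14 and, by 4.39 against 4.40, Hsd17b1), against 13.5%. Nothing is read from these counts, since the set was chosen with this contrast in view. The count in wildtype was 0 without any one of wildtype placebo arrays 1 and 2, wildtype estradiol array 3 and knockout placebo array 1. It was 1 without wildtype estradiol array 1 or 2 or any one knockout estradiol array. It was 3, with Akr1c18 added, without wildtype placebo array 3, where 6.3% of all genes were called.

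Whether loss of cyclin D1 alone altered these enzymes was tested among the placebo arrays, and no enzyme passed. The differences, knockout minus wildtype, ran from -0.08 (Hsd17b2) to 0.47 (Akr1c14), all with a limma adjusted p of 0.9999. For all 8 the groups overlapped, whereas 6.71% of all genes had groups that did not. By limma 0% of the 18193 genes were called in this comparison, while 370 genes (2.03%) and none of the 8 enzymes had an unadjusted p under 0.05. Ccnd1, the deleted gene, differed by -1.25 with groups that did not overlap, yet was not called either (limma adjusted p = 0.9999). The lack of calls therefore does not show that the enzymes were unaltered.

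Under estradiol the knockout glands had lower Hsd17b11 and Akr1c18 and higher Hsd11b1 values, but none of the 7 enzymes tested passed, where 1.12% of all genes did. Hsd17b11 differed by -0.59 ± 0.15 (SE; 95% interval -0.93 to -0.24; limma adjusted p = 0.117). Akr1c18 differed by -1.61 ± 0.65 (-3.04 to -0.17; adjusted p = 0.312). Hsd11b1 differed by 0.98 ± 0.32 (0.28 to 1.69; adjusted p = 0.205). These were the 3 enzymes with an unadjusted p under 0.05, as 13.5% of all genes had. The genotype groups did not overlap for Hsd17b11, on its main probe set, and Hsd11b1, against 22.3% of all genes. They overlapped for Akr1c18 because knockout array 1 (8.03) exceeded wildtype array 2 (7.87). On the second Hsd17b11 probe set they overlapped too, at 6.36 to 6.94 in knockout and 6.78 to 7.25 in wildtype. The difference there was -0.45 ± 0.22 (SE, limma adjusted p = 0.46 in a fit of each probe set on its own).

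The other enzymes tested had an unadjusted p above 0.05 between genotypes under estradiol. Akr1c14 differed by -0.32 (95% interval -1.44 to 0.79; limma adjusted p = 0.83), Hsd17b4 by 0.10 (adjusted p = 0.899), Hsd17b1 by 0.20 (adjusted p = 0.412) and Hsd17b2 by 0.23 (adjusted p = 0.433). For Akr1cl, chosen on estradiol arrays, the difference of -1.43 (95% interval -3.12 to 0.25) is given without a test. With the lymphocyte score as a covariate, chosen after seeing the data, Akr1c18 differed by -1.15 (limma adjusted p = 0.0094) and Hsd17b11 by -0.50 (adjusted p = 0.029). Both passed in that fit, which called 5.49% of all genes. With the luminal score instead, neither passed. Akr1c18 then differed by -2.58 ± 1.38 (SE) and Hsd17b11 by -0.87 ± 0.33 (limma adjusted p = 0.9996 for both), in a fit that called 0% of all genes.

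Whether the response to estradiol depended on genotype was tested as the interaction, the knockout response minus the wildtype response, and none of the 7 enzymes tested passed, where 0.011% of all genes did. Akr1c18 had a difference of responses of -1.99 ± 0.91 (SE; 95% interval -4.02 to 0.04; limma adjusted p = 0.776), Hsd17b11 of -0.60 ± 0.22 (adjusted p = 0.660) and Hsd11b1 of 0.76 ± 0.45 (adjusted p = 0.853). Akr1c14 had -0.79 ± 0.71 (adjusted p = 0.925). The second Hsd17b11 probe set gave -0.38 ± 0.31 (limma adjusted p = 0.952 in a fit of each probe set on its own). Hsd17b1, Hsd17b2 and Hsd17b4 had 0.24, 0.31 and 0.18, and Akr1cl, given without a test, -1.57 (95% interval -3.95 to 0.81). The interval for Akr1cl includes both equal responses and a far smaller one in knockout. With the lymphocyte score as a covariate, chosen after seeing the data, the Akr1c18 value was -1.50 (limma adjusted p = 0.048), in a fit that called 0.28% of all genes. With the luminal score instead, the Akr1c18 value was -2.61 ± 1.21 (SE, limma adjusted p = 0.856) and did not pass, in a fit that called 0% of all genes.

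**Figure D3:**
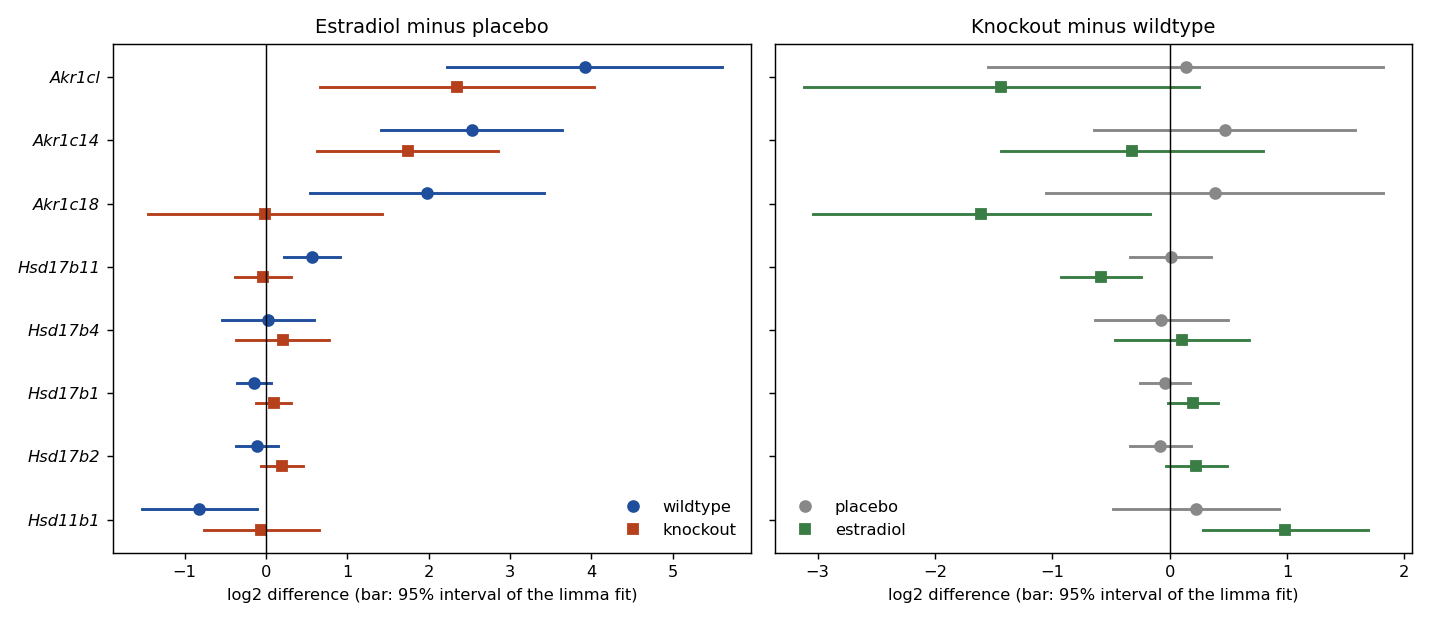
Log2 differences (horizontal axes) of the 8 enzymes with 95% intervals from the limma fit, estradiol minus placebo in each genotype and knockout minus wildtype under each treatment. The wildtype intervals of Akr1cl (2.23 to 5.60) and Akr1c14 (1.42 to 3.64) lie above 0, and the genotype intervals on placebo all include 0.

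Few genes of the wider steroid pathway passed the test. The pathway lists were drawn up with earlier results of these data known, so their estradiol calls describe these arrays and are no independent support. Of 84 other genes in 5 lists (synthesis from cholesterol, other dehydrogenases and reductases, other aldo-keto reductases, conjugation, hydroxylation) 72 were measured, and 2 of them rose in wildtype (2.78%, against 1.88% of all genes). None passed in knockout, where 11 of the 72 had an unadjusted p under 0.05 (8.32% of all genes). None passed between genotypes or in the interaction. An unadjusted p under 0.05 was found for 2 on placebo (2.03% of all genes), 11 under estradiol (13.5%) and 4 in the interaction (6.43%). The median difference of the 72 was 0.04 in wildtype and 0.09 in knockout, against 0.01 for all genes in both.

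Hsd11b2, which inactivates corticosterone and so opposes Hsd11b1, rose in wildtype. It read 6.27, 5.57 and 6.42 on placebo and 8.46, 8.25 and 9.06 under estradiol, and in knockout 6.16, 6.85 and 6.15 on placebo and 9.02, 8.25 and 7.78 under estradiol. All 6 estradiol arrays lay above all 6 placebo arrays. The rise in wildtype was 2.50 ± 0.36 (SE, n = 3 per group; limma adjusted p = 0.0078), and the difference in knockout was 1.96 ± 0.36 (adjusted p = 0.115), which did not pass. The interaction was -0.54 ± 0.51 (adjusted p = 0.933), so a difference between the genotypes was not shown. The rise passed in 21 of 22 alternatives, among them each of the 12 that left out 1 array. It did not pass with the luminal score as a covariate (2.68 ± 0.57, SE; limma adjusted p = 0.147). The difference was no smaller there but its SE was larger, and that fit called 0.0605% of all genes in wildtype.

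Cbr3, a carbonyl reductase, rose in wildtype by 1.30 ± 0.27 (SE; limma adjusted p = 0.044), from 7.60 to 8.58 on placebo to 8.96 to 9.68 under estradiol, and differed by 0.53 in knockout. Its call rested on single arrays: it passed when array 3 of wildtype placebo, array 2 of wildtype estradiol or array 2 of knockout placebo was left out, and was lost without any other array, where values were 1.07 to 1.30. Without wildtype placebo array 3 the count of called pathway genes was 6 and that of all genes 1146 (6.3%).

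By list, none of 14 genes of synthesis from cholesterol passed in wildtype. The largest differences were 0.32 for the cholesterol carrier Stard3 and 0.19 for the hydroxysteroid dehydrogenase Hsd3b2. Hsd3b2 lay at 3.23 to 4.04, under the lower quartile of every array. None of 11 other aldo-keto reductases passed, with 0.55 for Akr1e1 and 0.54 for Akr1b8. None of 17 conjugation and transport genes passed; the sulfated steroid transporter Slc10a6 differed by 1.02 in wildtype (limma adjusted p = 0.133) and -0.06 in knockout, and the glycosyltransferase Ugt8a by 0.69 and -1.26. None of 13 hydroxylases passed. Among them the oxysterol hydroxylase Cyp7b1 differed by 1.51 (limma adjusted p = 0.092) in wildtype and 0.88 in knockout. Its wildtype value ran from 0.95 to 2.39 over 22 alternative analyses. Cyp39a1 differed by 0.69 in wildtype (limma adjusted p = 0.058).

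**Figure D4:**
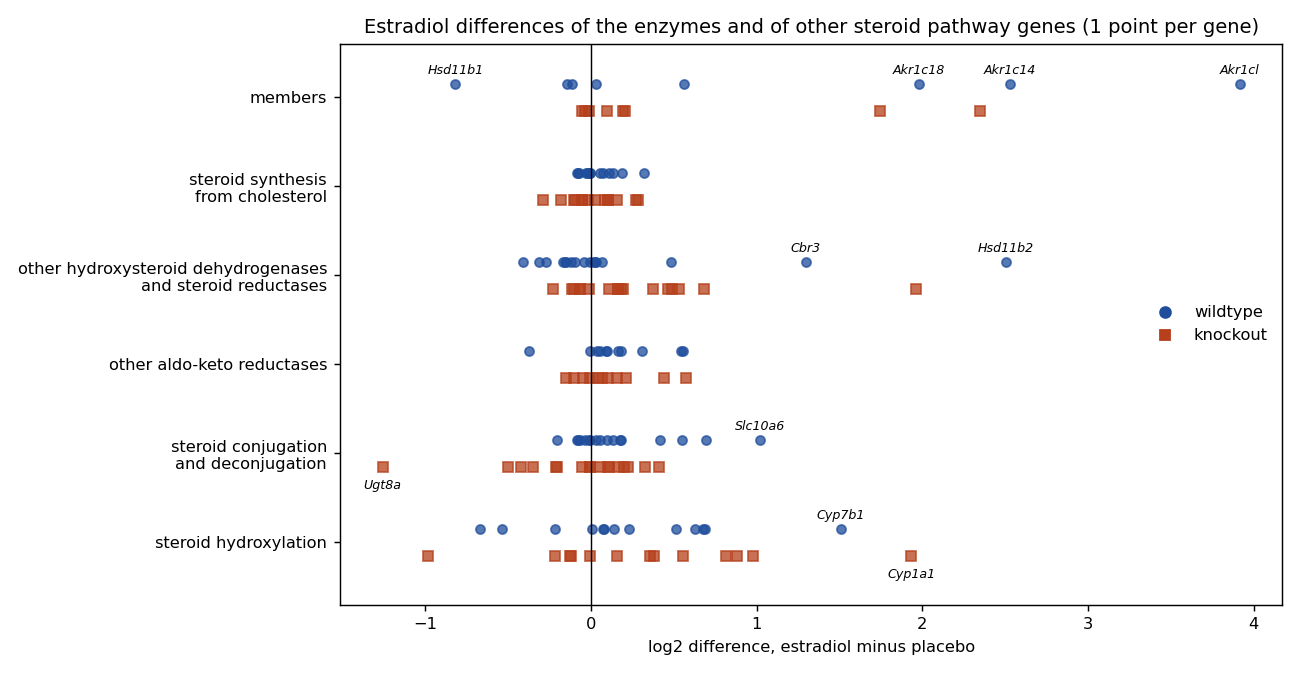
Log2 difference, estradiol minus placebo (horizontal axis), for each measured enzyme and each gene of the 5 steroid pathway lists, with 1 point per gene in wildtype and in knockout. Most genes lie near 0, with list medians of 0.04 in wildtype and 0.09 in knockout over the 72 genes, and Hsd11b2 lies at 2.50 in wildtype.

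Known estrogen targets were measured in the same glands, and as a list they did not all move one way. This list too was drawn up with earlier results of these data known, so its estradiol calls are a description. Of 18 measured targets the estradiol difference was above 0 for 10 and below 0 for 8 in wildtype (median 0.13). In knockout it was above 0 for 6 and below 0 for 12 (median -0.12). The test called 3 as higher in wildtype, where 1.88% of all genes were called. These were Greb1, an estrogen receptor cofactor, by 5.83, the progesterone receptor gene Pgr by 3.06 and the secreted protein gene Lcn2 by 2.87. In knockout 1 was called, Greb1, higher by 4.41, where 0.0989% of all genes were called. Under estradiol Pgr (-2.47, limma adjusted p = 0.0151) and Ccnd1 itself (-2.62, adjusted p = 0.0094) were lower in knockout, where 1.12% of all genes were called. The Lcn2 call held in only 3 of the 12 analyses that left out 1 array (array 3 of wildtype placebo and arrays 2 and 3 of knockout placebo). The Pgr genotype call was lost without wildtype estradiol array 3 (-2.44) or knockout estradiol array 2 or 3 (-2.47 and -2.48), and that of Ccnd1 without knockout estradiol array 3 (-2.53) or with only the 6 estradiol arrays (limma adjusted p = 0.064). With the luminal score as a covariate these calls were lost too. The genotype difference was then -0.93 for Pgr and -1.99 for Ccnd1 (limma adjusted p = 0.9996 for both). The wildtype estradiol difference was 1.39 for Lcn2 (limma adjusted p = 0.701) and 2.12 for Pgr (adjusted p = 0.087). That fit called 0 of 18193 genes between genotypes under estradiol and 11 (0.0605%) for estradiol in wildtype, so the losses are not particular to these genes. Lcn2 was also lost with only the 6 wildtype arrays (adjusted p = 0.059).

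The genes whose levels followed Akr1cl most closely over the 12 arrays were P4ha3, a subunit of collagen prolyl hydroxylase (Pearson r = 0.929), Itgb3, an integrin subunit (r = 0.915), and Zxdc, a zinc finger gene (r = 0.913), with 2 genes known by clone or model names between them. The arrays share the 4 treatment and genotype groups, so these correlations describe the pattern and carry no test. P4ha3 lay at 3.31 to 3.82 in wildtype placebo, 5.13 to 6.12 in wildtype estradiol, 3.69 to 3.79 in knockout placebo and 4.48 to 5.14 in knockout estradiol, so its 6 placebo values were under the lower quartile of their arrays (4.15 to 4.29). Zxdc lay at 8.19 to 8.40, 9.34 to 9.51, 8.25 to 8.54 and 8.62 to 9.24 in the same order. In both the estradiol arrays stood above the placebo arrays of each genotype, as they did for Akr1cl, and for both the highest group was wildtype estradiol. The same separation held for Gm17501. Itgb3 was separated in wildtype but overlapped in knockout, with 5.58 to 6.19 on placebo and 6.00 to 6.98 under estradiol. So did 6330403K07Rik, with 3.69 to 4.60 and 4.51 to 4.92 in knockout.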

How the data were processed

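Total RNA of 12 mammary glands, 1 per array, was measured in 4 groups of 3 mice. The deposited values are log2 intensities normalized by the authors over the arrays, with RMA and limma 2.9.16 per the submitters' processing notes; the chip definition is not given in the sources used here. RMA evens out intensity distributions, so shifts common to most genes would not show.

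Of the probe sets, 34945 had 1 gene symbol in the platform table, 932 had several, 9160 had none and 64 were controls; each of 18193 genes was represented by its brightest probe set over the 12 arrays. One limma 3.58.1 fit (R 4.3.3) of 4 group means with eBayes gave 5 comparisons on 8 residual and 2.15 prior degrees of freedom. Tests were two-sided with Benjamini-Hochberg adjustment over all genes and a threshold of 0.05. The fit was tested on simulated data.

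The members and lists were chosen with earlier results of these data known. Named genes are all members, listed pathway and estrogen target genes that were called, the 2 largest wildtype estradiol differences of each list, and the 5 genes most correlated with Akr1cl. Alternatives were other probe set summaries, scalings and priors, dropping the dimmest 40% of genes, fewer arrays and a replicate block. Motifs were searched in 250 bases; figures used matplotlib 3.10.9 in Python 3.11.15.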

Additional observations from a re-analysis of the deposited data

How the results depend on the processing

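The numbers of enzymes called kept at 0 on placebo between genotypes and in knockout under all 23 alternatives. For estradiol in wildtype 2 enzymes were called, where 1.88% of all genes were. The number was 1 with the mean of all probe sets (1.71% of all genes) and 0 with only the 6 arrays of the comparison (0.39%). It was 4 without the 2 placebo arrays low in lymphocyte genes (11.8%) and 0 with the luminal score as a covariate (0.0605%). When 1 array was left out it was 0 to 3 (0.55% to 6.3%). With the lymphocyte score as a covariate it was 3 for estradiol in wildtype (3.78% of all genes), where Akr1c18 was added. In that fit it was 2 between genotypes under estradiol (5.49%) and 1 for the interaction (0.28%). Of the 72 pathway genes, 2 were called in wildtype. The number was 1 with each probe set on its own, with quantile scaling (1.63% of all genes) or with only the 6 arrays (0.39%). It was 8 without the 2 placebo arrays, where 11.8% of all genes were called, and 0 with the luminal score (0.0605%). When 1 array was left out it was 1 to 6 (0.55% to 6.3%). With the lymphocyte score it was 1 in knockout (0.297% of all genes) and 3 between genotypes under estradiol (5.49%). Between genotypes under estradiol it was 2 without the 2 placebo arrays (2.59%) and 0 to 2 when 1 array was left out (0% to 1.73%). The score covariates were chosen after seeing the data. Fits of 6 or 11 arrays rest on fewer samples; otherwise the cause was not tested. No difference that was called reversed its sign. Replicate numbers recur in every group, but only 7 of 18 same-number pairs correlated above 0.1 (from -0.74 to 0.66), so the numbers were not taken to pair animals. With the replicate number as a block, 0 enzymes and 1 pathway gene were called in wildtype, and 158 genes in all (0.868%). For Akr1cl the wildtype estradiol difference stayed above 0 in all 24 alternatives, from 1.05 on its dim probe set to 4.62. Hsd17b1, Hsd17b2 and the second Akr1cl probe set lay near the lower quartile, where the arrays resolve little.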

Other observations

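After Hsd11b2, the pathway genes with the largest knockout estradiol differences were Cyp1a1, Ugt8a (-1.26, given above), Cyp1b1 and Cyp27a1; they were chosen after their values were seen, and none passed the test. Cyp1a1, which hydroxylates estradiol, read 6.45, 6.86 and 6.25 in knockout placebo and 8.14, 7.26 and 9.96 in knockout estradiol arrays, a difference of 1.93 ± 0.62 (SE; limma adjusted p = 0.449). In wildtype its difference was 0.08, and the interaction was 1.86 ± 0.88 (limma adjusted p = 0.793). Cyp1b1, which also hydroxylates estradiol, differed by -0.98 in knockout (limma adjusted p = 0.209) and by -0.67 in wildtype. The sterol hydroxylase Cyp27a1 differed by 0.98 in knockout (limma adjusted p = 0.341) and by 0.68 in wildtype.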
